A study of Mus musculus with 10 samples.

Results

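SQ-diEG, a compound known here only by that name, was compared at 5 and 25 mg/kg per day with water in mice that had been injected with B16F10 cells. The comparison uses 6 of the 10 arrays of the series, chosen by their titles. They are 2 arrays of each dose, 4 SQ-diEG arrays in all, and 2 arrays of injected mice given water. All 6 came from lung RNA of male C57BL/6J mice, which the labels describe as 6 weeks old, and treatment lasted 20 days. The other 4 arrays were 2 of uninjected mice given water and 2 of injected mice given the drug DTIC at 70 mg/kg per day. They also entered the estimate of spread behind the limma p-values and standard errors of the main model. B16F10 is an established melanoma line of C57BL/6 origin, and every group in the comparison, the water group included, had been injected with it. The labels do not give the route or number of the cells, and it is not stated if the RNA on an array came from 1 mouse or was pooled from the 8 mice of its group. The p-values therefore reflect no more than the differences among the 10 arrays of the series, possibly technical ones. The question asked of each gene was whether it moved the same way at both doses, with the lowest SQ-diEG array above the higher water array, or the highest SQ-diEG array below the lower water array. Such a gene is called separated here.

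B16F10 cells make melanin in melanosomes, whose matrix protein is Pmel and whose enzymes are Tyr, Tyrp1 and Dct. When such cells grow in a lung, their transcripts are mixed with those of the lung's own cells, among them type II alveolar cells, which secrete surfactant and are marked by Sftpc. Lung RNA mixes all of these, and fewer cells of a type cannot be told apart from less RNA per cell in such a mixture.

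The 6 arrays shared little beyond their background. Over the 19011 genes tested, and genes are not independent replicates, Pearson's r was 0.193 between both water arrays, 0.170 between the arrays of 5 mg/kg, 0.233 between those of 25 mg/kg, and 0.164 to 0.216 between a SQ-diEG array and a water array. The array carries negative-control and positive-control probe sets, so called from their names. Taking 1 of each at random, the positive control was the higher with a probability of 0.455 to 0.479 on the 6 arrays, and a gene probe set exceeded a negative control with a probability of 0.439 to 0.467, both less often than not. The 95th percentile of the negative controls, used below as the background limit, lay between 10.73 and 11.05 on the deposited log2 scale, and 0.295% to 0.431% of genes exceeded it on an array. None of the 15 lung markers tested, which included Sftpc and markers of airway, endothelium and leukocytes, exceeded it on any of the 6 arrays, nor did any of Pmel, Tyr, Tyrp1, Dct and Mlana. Defining markers of lung were thus not over background on these arrays. The hybridization controls, transcripts added to the hybridization mix, averaged 10.28 and 10.99 on the water arrays, 9.10 and 10.15 at 5 mg/kg, and 10.27 and 10.92 at 25 mg/kg, and their part in the results was not tested beyond their use as a covariate.

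**Figure D1:**
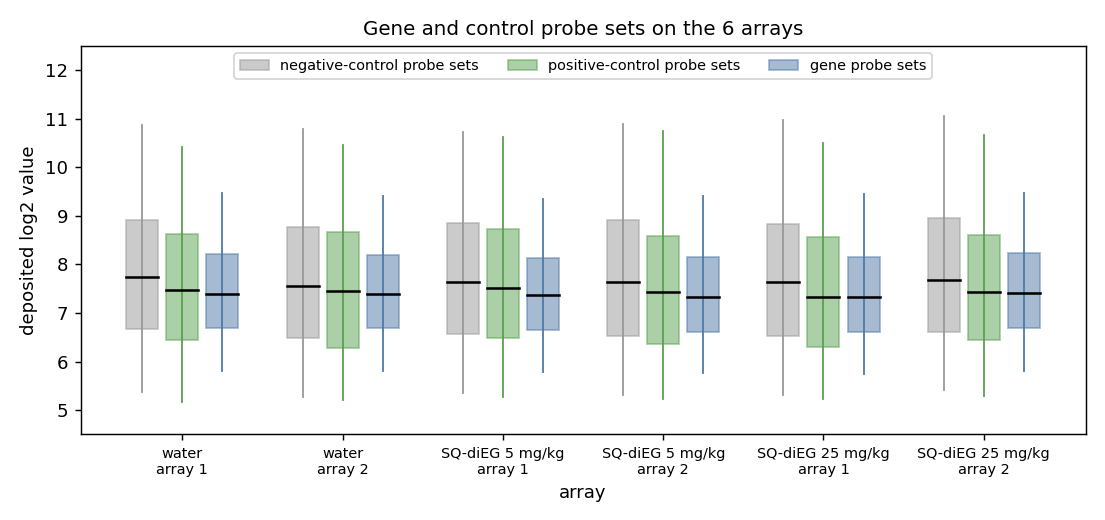
Deposited log2 values (vertical axis) of negative-control, positive-control and gene probe sets on each of the 6 arrays (horizontal axis). Boxes run from the lower to the upper quartile of the probe sets, black lines are medians and thin lines run from the 5th to the 95th percentile. On each array the median of the gene probe sets lies below that of the negative controls, which is 7.56 to 7.74.

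No gene passed the test for a change with SQ-diEG. Of 19011 genes, 0 reached an adjusted p under 0.05 for the mean of both doses against water (limma with Benjamini-Hochberg adjustment, 0% called, smallest adjusted p = 0.786), and 929 (4.89%) had an unadjusted p under 0.05, 370 of them higher (1.95%) and 559 lower (2.94%). By position alone, 2524 genes were separated, which is 13.3% of those tested. Of these, 1205 (6.34%) lay above both water arrays on all 4 SQ-diEG arrays and 1319 (6.94%) below them. An exact permutation test on the ranks of 4 arrays against 2 has 15 arrangements, so its smallest two-sided p is 0.133. Every separated gene has that p, 13.3% of all genes reached it, and the design cannot reach 0.05 for a single gene. The difference between SQ-diEG and water had a median of -0.01 over all genes and a standard deviation of 0.86, where the typical standard error of a single gene was 0.84. The spread of the differences over genes was close to that standard error.

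**Figure D2:**
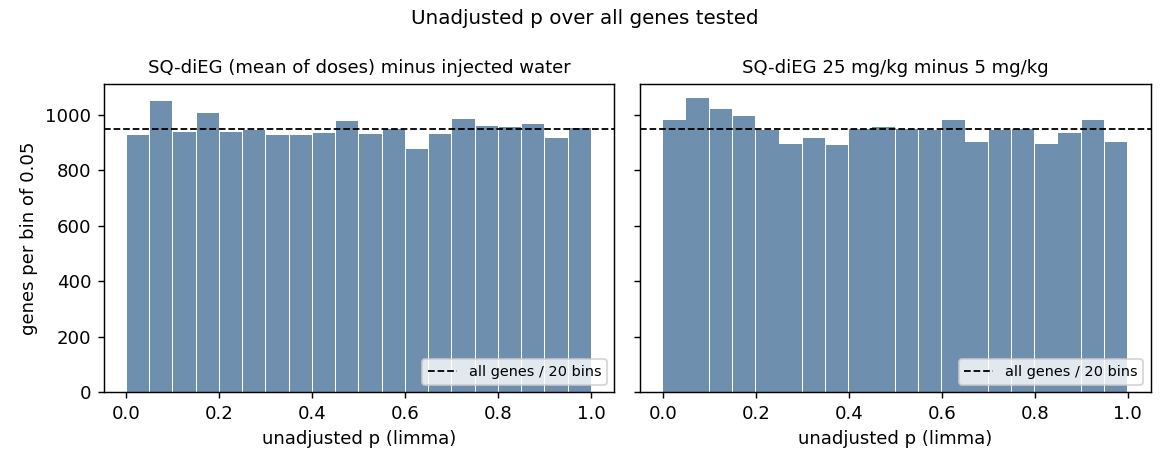
Number of genes (vertical axis) per bin of 0.05 of the unadjusted p from limma (horizontal axis), for SQ-diEG against injected water on the left and for 25 against 5 mg/kg on the right. The dashed line is the number per bin if all genes were spread evenly, and the first bin holds 929 genes on the left and 983 on the right.

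The share of separated genes differed little with level, and that difference was not tested. Ranked by mean level over all 10 arrays, 4 groups of genes of equal size held 12.9%, 12.6%, 13.6% and 14% separated genes from the lowest to the highest. Of the 324 genes that exceeded the background limit on at least 1 of the 6 arrays, 44 were separated (13.6%), against 13.3% of the 18687 that exceeded it on none. The gap between the nearest SQ-diEG and water arrays had a median of 0.32 over the separated genes and was above 1 log2 unit for 224 of them. Of the 2524 separated genes, 2480 exceeded the background limit on none of the 6 arrays (98.3%), the same share as among all genes tested (98.3%).

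Among genes higher with SQ-diEG, the widest gap was that of Mrgprh, which encodes a receptor of the Mas-related family, known from sensory neurons. Its deposited log2 values were 8.65 and 9.49 at 5 mg/kg, 8.83 and 9.09 at 25 mg/kg, and 5.85 and 5.95 with water. All 4 treated arrays were at least 2.70 above the higher water array. The difference was 3.11 (SE 0.82) and did not pass (limma, Benjamini-Hochberg adjusted p = 0.788). Zfp212, a zinc finger gene, stood at 8.82, 9.36, 9.53 and 8.49 on the treated arrays in the same order and at 5.34 and 6.34 with water. Hsd3b2, of a family of enzymes of steroid hormone synthesis, stood at 8.54, 8.37, 8.46 and 8.85 against 5.70 and 6.25. Il10rb, a shared chain of the receptors for interleukin 10 and related cytokines, stood at 8.08, 9.08, 8.94 and 8.63 against 6.02 and 6.16. In these 4 genes the arrays of both doses overlapped with each other. Cyclin C, Ccnc, a subunit of the Mediator kinase module, differed by 2.81 (SE 0.83), with treated arrays from 8.11 to 8.93 and water arrays at 6.20 and 5.50.

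Other genes of this side were uneven over the treated arrays. The olfactory receptor gene Olfr1298 had the smallest p on the higher side, with 7.90 and 10.41 at 5 mg/kg, 10.30 and 9.66 at 25 mg/kg, and 6.62 and 5.97 with water, a difference of 3.27 (SE 0.83) that did not pass (limma, adjusted p = 0.786). Slco6c1, a member of the organic anion transporter family, stood at 7.49 and 7.38 at 5 mg/kg, 9.63 and 11.40 at 25 mg/kg, and 5.88 and 5.67 with water. Its single array at 11.40 was over the background limit, the only such value among the 10 genes with the smallest p on this side. Slco1b2, an uptake transporter of the liver, lay at 9.08, 9.22 and 9.47 on 3 treated arrays and at 7.16 on the remaining 25 mg/kg array, against 5.88 and 5.51 with water. Ikaros, Ikzf1, a transcription factor of lymphoid cells, ranged from 7.54 to 9.94 with treatment and stood at 5.85 and 6.75 with water. Olfr1511 and Lrrc3c completed the group, at 2.70 (SE 0.85) and 2.60 (SE 0.82), and neither passed.

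Among genes lower with SQ-diEG, the widest gap was that of Prdm1, which encodes the transcriptional repressor Blimp-1 of plasma cell differentiation. Its values were 7.17 and 6.89 at 5 mg/kg, 6.83 and 6.30 at 25 mg/kg, and 9.76 and 9.86 with water. The water arrays averaged 9.81 ± 0.08 (SD, n = 2), and the difference of -3.01 (SE 0.81) did not pass (limma, adjusted p = 0.820). Dnttip2, a gene of a nuclear protein, stood at 6.58, 6.35, 6.33 and 6.85 against 9.33 and 9.29. Rbm46, an RNA-binding protein of germ cells, stood at 6.33, 5.41, 6.21 and 6.04 against 8.51 and 9.75. Pex11g, a peroxisome membrane protein gene, stood at 6.03, 6.20, 6.35 and 5.84 against a water mean of 8.75 ± 0.35 (SD, n = 2). Mgst1, a membrane-bound glutathione transferase, stood at 7.84, 6.71, 6.67 and 7.80 against 10.60 and 9.85. In Prdm1 both arrays of 25 mg/kg lay below both of 5 mg/kg, and in the other 4 genes the doses overlapped.

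Olfr610, another olfactory receptor gene, had the smallest p of the comparison. It stood at 6.39 and 6.19 at 5 mg/kg, 8.38 and 6.57 at 25 mg/kg, and 10.92 and 10.29 with water. Its difference of -3.72 (SE 0.85) did not pass (limma, adjusted p = 0.786), and it exceeded the background limit on 1 array, a water array. Gml, which encodes a small protein of the Ly6 family, differed by -3.54 (SE 0.85), and Sclt1, a protein of the centriole's distal appendages, by -3.33 (SE 0.82). Next came St7l at -3.03 (SE 0.83), Ccdc157 at -3.02 (SE 0.83), the splicing factor Puf60 at -2.92 (SE 0.83) and the vesicular glutamate transporter Slc17a8 at -2.90 (SE 0.84). Ago4, an Argonaute protein of small RNA pathways, was among the 5 widest gaps, at 6.01, 7.66, 7.64 and 7.94 against 9.95 and 10.52. Water arrays of these genes were high by the standard of the table, yet with the exception of Olfr610 all lay under the background limit.

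**Figure D3:**
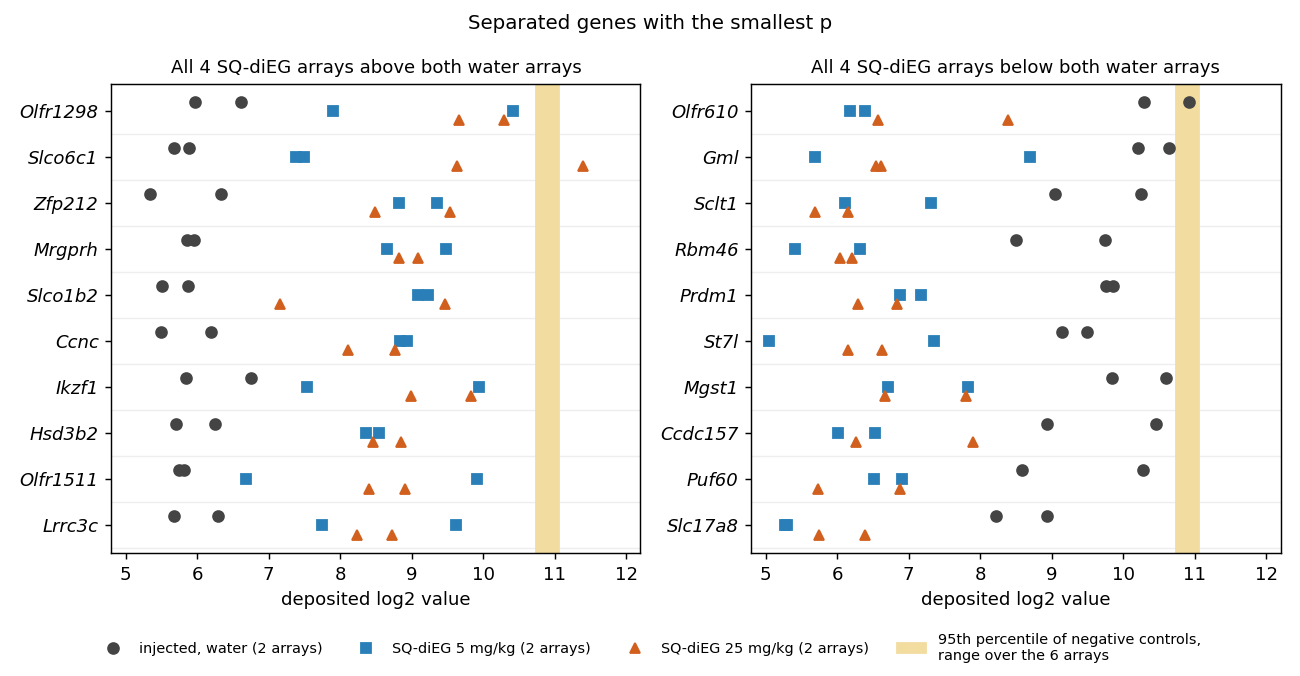
Deposited log2 values (horizontal axis) on the 2 injected water arrays, the 2 arrays of 5 mg/kg and the 2 arrays of 25 mg/kg, 1 point per array, for the 10 separated genes with the smallest p in each direction (vertical axis). The yellow band is the range over the 6 arrays of the 95th percentile of the negative controls, 10.73 to 11.05, and only Slco6c1 and Olfr610 reach it.

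The separated genes with signal over background on their higher side were 4 in number, 0.021% of those tested. All were lower with SQ-diEG, but that choice asks for 2 water arrays over the limit in a lower gene and for 4 SQ-diEG arrays in a higher one, so their direction is not a result. Itpk1, an inositol phosphate kinase, stood at 12.19 and 11.72 with water and at 10.05, 10.25, 10.35 and 9.85 with SQ-diEG. The keratin-associated protein gene Krtap5-4, known from hair, stood at 11.89 and 11.63 with water and at 9.25, 10.54, 9.48 and 10.28 with SQ-diEG. Their differences were -1.83 (SE 0.81) and -1.87 (SE 0.83), and neither passed (limma, adjusted p = 0.957 for both). Cldn34c1, a claudin family gene, and Cort, which encodes the neuropeptide cortistatin, were separated by gaps of 0.20 and 0.14. They differed by -1.52 (SE 0.87) and -0.79 (SE 0.84). Some of their SQ-diEG arrays were themselves over the limit, 2 of 4 for Cldn34c1 and 3 of 4 for Cort.

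Values near the limit between separated and overlapping genes show how little that limit asks. Zfp3 was separated with its lowest treated and higher water array both at 6.47, and Mlxipl with both at 6.05. Zkscan5, at 6.70 on both sides, and Glyctk, at 7.41, counted as overlapping. On the lower side Txndc8 (7.64) and Mafg (7.20) fell just inside the limit, and Morn5 (7.55) and Smim6 (7.47) just outside it. In all, 481 separated genes had a gap under 0.1, and 545 overlapping genes missed separation by less than that.

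In the pigment cell list, 9 of 22 genes tested were higher and 13 lower with SQ-diEG, with a median difference of -0.43 beside -0.01 for all genes. None passed limma's test, Cd63 was the 1 member over the background limit on any of the 6 arrays, and 6 (27.3%) were separated, 3 in each direction, beside 13.3% of all genes. Pmel stood at 9.19 and 9.68 with water, 8.32 and 7.79 at 5 mg/kg, and 8.97 and 6.91 at 25 mg/kg. All 4 treated arrays lay below both water arrays, by 0.22 at the nearest, and the difference was -1.44 (SE 0.84). Slc45a2, a transporter of the melanosome, went the other way, from 6.19 and 6.05 with water to 6.59, 8.47, 8.66 and 7.98. The tetraspanin Cd63, found in melanosomes and other late endosomes, also lay above water, with a difference of 1.46 (SE 0.85) in which 1 array of 5 mg/kg stood apart at 11.20. Tyr, Tyrp1, Dct and Mlana overlapped between SQ-diEG and water and differed by -0.61 (SE 0.88), -0.53 (SE 0.84), -0.39 (SE 0.81) and -1.11 (SE 0.82).

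Of 17 genes of type II alveolar cells, 10 were higher and 7 lower, the median was 0.34, 2 were separated (11.8%, beside 13.3% of all genes) and none passed. Sftpc, the surfactant protein made by these cells alone, stood at 7.09 and 8.29 at 5 mg/kg, 9.44 and 8.77 at 25 mg/kg, and 7.00 and 5.68 with water. The nearest arrays were 0.09 apart, and the difference of 2.06 (SE 0.84) did not pass (limma, adjusted p = 0.957). Lysozyme, Lyz2, shared with macrophages, differed by 0.87 (SE 0.83). In type I alveolar cells 5 genes were higher and 5 lower, and the anchoring protein gene Akap5 was the 1 separated gene at -0.92 (SE 0.80). In endothelium 9 were higher and 8 lower, with the junction protein gene Esam at 1.72 (SE 0.86) and the transcription factor Sox17 at -0.70 (SE 0.80). Heart and muscle lie beside the lung. Of 14 heart and muscle genes 9 were higher and 2 separated, cardiac actin Actc1 at 2.51 (SE 0.85) and the calcium release channel Ryr2 at -1.91 (SE 0.81). No member of the 4 lists of lung and heart named here exceeded the background limit on any of the 6 arrays.

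Immediate early genes are those that a stimulus switches on first, before new proteins are made. Of 28 tested, 22 were lower and 6 higher with SQ-diEG, the median difference was -0.59 beside -0.01 for all genes, and 5 (17.9%) were separated, all lower, beside 13.3% of all genes separated and 6.94% separated on the lower side. None passed over all genes. These counts use 1 probe set per gene. A probe set of Egr3 that they leave out was separated higher, at 0.58, and its other probe sets overlapped at -0.93 and -0.52. Egr1, the zinc finger transcription factor, stood at 7.14 and 8.70 with water, 5.34 and 5.89 at 5 mg/kg, and 5.78 and 6.97 at 25 mg/kg, a difference of -1.93 (SE 0.82). The nuclear receptor gene Nr4a3 stood at 8.62 and 8.40 with water and between 6.08 and 8.07 with SQ-diEG, a difference of -1.47 (SE 0.81). Myc overlapped, with 9.68 and 7.36 in water and 5.84 to 8.18 in treated arrays. The list's mean level was 7.73 and 7.87 on the water arrays and 7.16 to 7.33 on the 4 treated arrays, and the mean of all genes was 7.46 to 7.53 on the 6 arrays. The list's mean lay under the median of the negative controls on the 4 treated arrays and on 1 of the 2 water arrays, and no member exceeded the background limit on any array. Most of these genes had been seen lower at 5 mg/kg in the same arrays before the list was chosen, so its count is no independent evidence.

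The lists of energy metabolism are set against 13.3% separated genes and a median difference of -0.01 over all genes. These lists, and those of the paragraphs below, were chosen with earlier results of these data known. Their counts are no independent evidence. Of 26 genes of oxidative phosphorylation, 16 were lower and 10 higher, and the median was -0.34. Separated were 6 (23.1%), 5 of them lower, where 6.94% of all genes were separated on that side. Atp5o, a subunit of ATP synthase, stood at 8.83 and 9.50 with water, 7.58 and 8.07 at 5 mg/kg, and 5.44 and 5.95 at 25 mg/kg. Sdhc, an anchor of succinate dehydrogenase, differed by -1.66 (SE 0.86). In glycolysis and hypoxia 13 of 26 were lower and 13 higher, and 6 were separated, 3 each way. Lactate dehydrogenase A, Ldha, stood at 9.73 and 10.68 with water and at 9.48, 6.91, 6.84 and 7.71 with SQ-diEG, so 1 array of 5 mg/kg lay near the water arrays and the rest well below. Ankrd37, a hypoxia-induced gene, differed by -1.87 (SE 0.82). Of 26 genes of fatty acids and lipid storage 18 were lower, with a median of -0.38 and 4 separated (15.4%). They included the lipid droplet protein Plin2 at -2.18 (SE 0.84) and the carnitine transferase Cpt2 at -1.95 (SE 0.83). Sterol synthesis had 13 genes higher and 8 lower, a median of 0.30 and 2 separated genes of 21 (9.5%), Cyp51 at -1.27 (SE 0.83) and Ggps1 at 1.22 (SE 0.81). Squalene epoxidase, Sqle, overlapped at -0.07 (SE 0.82). None of the genes of these lists passed limma's test.

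The lists of immune cells and functions, also chosen with earlier results known, held between 0 and 22.2% separated genes, beside 13.3% of all genes. Antigen presentation through MHC class I had 14 of 21 genes higher, with a median of 0.27 and 4 separated (19.0%), 3 higher and 1 lower. The class I heavy chain gene H2-K1 stood at 7.24 and 8.05 with water and at 8.84, 9.29, 10.25 and 8.80 with SQ-diEG, and H2-T23 differed by 1.65 (SE 0.84). The 1 lower gene, named after its values were seen, was H2-D1, another class I heavy chain, at 8.15 and 8.74 with water and a difference of -1.44 (SE 0.82). Of 24 interferon response genes 13 were lower, and 5 (20.8%) were separated, all lower, where 6.94% of all genes were separated on that side. The 5 were led by the membrane-tethering factor Bst2 at -1.07 (SE 0.81) and the RNA sensor Ddx58 at -0.97 (SE 0.84). Of 18 macrophage genes 9 were higher and 9 lower, and the integrin gene Itgax stood at 7.41 and 7.69 with water and at 5.37, 4.84, 5.50 and 6.31 with SQ-diEG. Ly6c2, a monocyte marker, differed by 1.11 (SE 0.81). Of 15 T cell genes 0 were separated. In NK and cytotoxic cells 2 of 15 were (13.3%), the receptor Ncr1 at -1.10 (SE 0.83) and perforin, Prf1, at 0.91 (SE 0.82). Among 13 neutrophil genes the antimicrobial peptide Camp differed by 1.43 (SE 0.82) and the chemokine receptor Cxcr2 by -1.31 (SE 0.81). No member of these lists passed or exceeded the background limit on any of the 6 arrays.

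In cell division, 19 of 34 genes were higher and 6 (17.6%) were separated, 4 higher and 2 lower, beside 13.3% of all genes. The mitotic checkpoint gene Bub1b and the kinetochore motor Cenpe lay below water at -1.60 (SE 0.83) and -1.54 (SE 0.81), while Mki67 overlapped. The 4 above water, named after their values were seen, were Ube2c at 1.37 (SE 0.84), Mcm5 at 1.35 (SE 0.84), Rrm1 at 1.28 (SE 0.82) and Cdk1 at 0.39 (SE 0.81). DNA repair had 13 of 21 genes lower and 4 separated (19.0%), all lower, where 6.94% of all genes were separated on that side. That list too was chosen with earlier results known. Xpc, the sensor of nucleotide excision repair, stood at 9.13 and 10.09 with water, 8.28 and 8.14 at 5 mg/kg, and 6.52 and 6.42 at 25 mg/kg. Ercc5, an endonuclease of the same pathway, differed by -1.67 (SE 0.83). The p53 and apoptosis list had 2 of 26 separated (7.7%), Sesn2 at -1.27 (SE 0.84) and Trp53inp1 at 1.05 (SE 0.85), and Cdkn1a differed by -0.04 (SE 0.88). Of 24 genes of matrix proteases and invasion, 1 was separated (4.2%), the protease inhibitor Timp2 at 1.67 (SE 0.89), and of 16 angiogenesis genes 0 were. None of these genes passed limma's test.

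In the remaining lists of cell types and stress responses the share of separated genes ran from 0 to 28.6%, on both sides of the 13.3% of all genes. Of 17 genes of fibroblasts and their matrix 9 were higher and 8 lower, and elastin, Eln, at -1.14 (SE 0.83) and the collagen gene Col1a2 at -0.91 (SE 0.81) were the 2 separated. In airway epithelium 1 of 9 was separated, Cyp2f2 of club cells, by a gap of 0.005. In B and plasma cells 1 of 14 was, the antigen receptor chain Cd79a at 1.41 (SE 0.85), although Prdm1, a gene of plasma cells, lay on the lower side. Among genes of inflammation and NF-kB 2 of 22 were separated, the NF-kB subunit Rela at -1.26 (SE 0.82) and the chemokine Cxcl2 at 0.84 (SE 0.83). In the list of antioxidant and drug metabolism genes 3 of 28 were (10.7%), all higher, where 6.34% of all genes were separated on that side. They included superoxide dismutase, Sod1, at 1.34 (SE 0.87) and the glutathione transferase Gsta4 at 1.48 (SE 0.83), while Mgst1 of the same class of enzymes lay below water. In the unfolded protein response 0 of 17 were separated. Fat cell genes, which mark tissue beside the lung, had 2 of 7 separated, leptin, Lep, at 1.38 (SE 0.82) and the lipid droplet protein Plin1 at -0.85 (SE 0.81). None of these genes passed limma's test.

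Receptors of smell and taste, which lung tissue is not known to express at large, gave a share like that of all genes. Of 1438 olfactory, vomeronasal and bitter taste receptor genes, 186 were separated (12.9%), beside 13.3% of all genes and 78 of the 556 genes tested from the 31 lists of processes and cell types written out by name. Among vomeronasal type 1 receptors 23 of 200 (11.5%) were separated, 12 higher and 11 lower. Vmn1r13 at -2.18 (SE 0.82) and Vmn1r31 at -1.99 (SE 0.82) had the smallest p among them. The ribosomal protein genes, which every cell transcribes, had 2 of 36 separated for the large subunit and 2 of 22 for the small one. They were Rpl35a at 1.76 (SE 0.83), Rpl10a at 1.45 (SE 0.83), Rps15a at 2.06 (SE 0.82) and Rps6 at -1.99 (SE 0.83). Hmgb1, an abundant chromatin protein and one of only 4 genes over the background limit on all 6 arrays, stood at 11.90 and 12.15 with water and between 11.55 and 12.02 with SQ-diEG. It overlapped, as did Cbx3 and Ptma, at -0.23 (SE 0.81), -0.52 (SE 0.90) and 1.01 (SE 0.85).

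**Figure D4:**
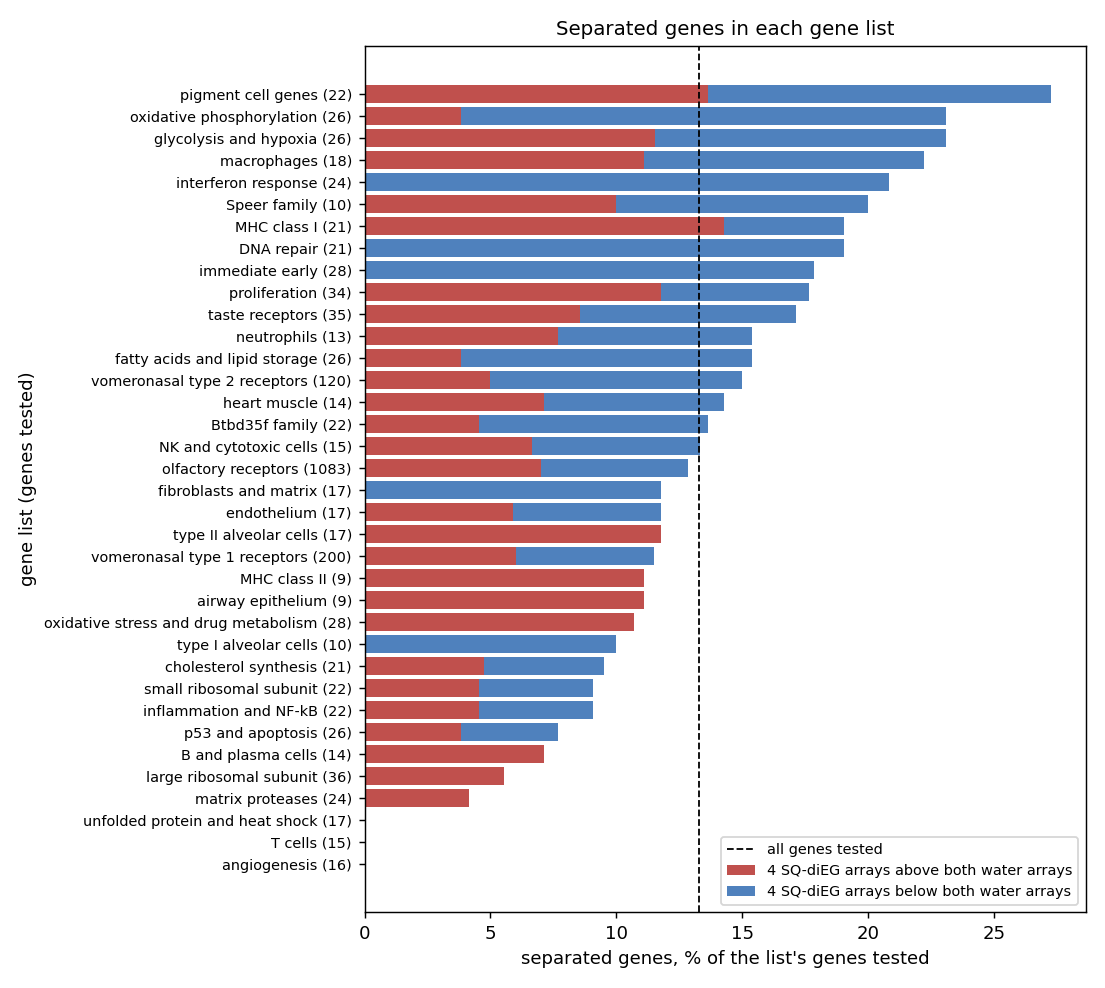
Percentage of each list's genes that were separated (horizontal axis), for the 36 lists with at least 9 genes tested (vertical axis, number tested in brackets), split into genes above and genes below both water arrays. The dashed line is the 13.3% of all genes, and the lists run from 0% to 27.3% on both sides of it.

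The doses were also set side by side and against each other. Both comparisons with water share the 2 water arrays, and in each 0 of 19011 genes passed (limma, 0% called). At 5 mg/kg 1005 genes (5.29%) had an unadjusted p under 0.05, 450 higher (2.37%) and 555 lower (2.92%). At 25 mg/kg there were 997 (5.24%), 487 higher (2.56%) and 510 lower (2.68%). The smallest adjusted p of any comparison was that of Slco6c1 at 25 mg/kg, at 0.122 (limma) for a difference of 4.74 (SE 0.95), beside 1.66 (SE 0.95) at 5 mg/kg. Between the doses themselves, a comparison that does not use the water arrays, 0 of 19011 genes passed (limma, 0% called, smallest adjusted p = 0.893) and 983 (5.17%) were under 0.05 before adjustment, 548 higher (2.88%) and 435 lower (2.29%) at 25 mg/kg. Slco6c1 was higher at 25 than at 5 mg/kg by 3.08 (SE 0.95). Mki67, the marker of dividing cells, stood at 9.48 and 9.51 at 25 mg/kg and at 7.46 and 6.59 at 5 mg/kg. Its difference was 2.47 (SE 0.97), while the median over the 34 genes of the cell division list was 0.21. Tyrp1 and Atp5o lay lower at 25 mg/kg by -2.40 (SE 0.97) and -2.13 (SE 1.02), and Xpc by -1.74 (SE 0.96). None of these genes passed. The median over their lists was -0.10 for pigment genes, 0.24 for oxidative phosphorylation and 0.24 for DNA repair, beside 0.03 for all genes. Rab38 of the pigment list, named after its values were seen, went the other way, with 7.09 and 7.09 at 5 mg/kg and 10.11 and 10.09 at 25 mg/kg. The standard error of a dose difference on a single gene was near 1 log2 unit, and the size of effect that could be detected was not tested.

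The 4 arrays outside the comparison give levels of the leading genes without the cells or with another drug, shown here for some of them. Prdm1 reached 8.03 in uninjected mice given water and 8.10 in injected mice given the alkylating drug DTIC, and all 4 arrays lay between the SQ-diEG and the injected water arrays. Mrgprh stood at 5.61 and 7.57 in uninjected mice and at 7.83 and 7.51 with DTIC. Mgst1 stood at 8.41 and 8.00 in uninjected mice and 7.34 and 7.14 with DTIC, and Dnttip2 at 6.36, 8.12, 6.82 and 6.94 in the same order. In other leading genes the DTIC arrays lay far apart, at 8.22 and 10.79 in Olfr610, 6.89 and 10.46 in Ago4 and 7.85 and 9.97 in Pex11g. The higher DTIC array lay between the injected water arrays in Olfr610 and Ago4 and above both in Pex11g. The genes were picked for an extreme position of the injected water arrays, so these values are a description only.

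Some genes had several probe sets. For 51 such genes whose probe sets held different values, 12 had at least 1 separated probe set, beside 13.3% of all genes by 1 probe set each. These shares are not alike, since several probe sets give a gene more chances of separation. In 0 of the 12 were all probe sets separated in the same direction. Without any change such agreement would be rare among 51 genes, so the 0 decides little. Rbm4 had probe sets separated lower at -1.25 and -1.49, and its others overlapped at 0.36 and -0.86.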

How the data were processed

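Lung RNA was measured on 10 Affymetrix arrays, 2 for each of 5 groups. The authors deposited 1 log2 value per probe set and array. The submitters' processing notes name RMA, Transcriptome Analysis Console and Affymetrix Expression Console, without versions, and the genome build is not given in the sources used here. Per the labels' protocols the target was biotinylated cRNA made with a 3' kit, while the probe set names have the transcript-cluster form of whole-transcript arrays. How this bears on the printed values was not tested. The number of arrays limits the precision.

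Of 28846 probe sets, 6640 were controls by name, 19572 had 1 gene symbol in the platform annotation, 0 had several and 2634 had none. Each of the 19572 identifiers matched NCBI's RefSeq genes of GRCm38.p6, used for names only. Of several probe sets of a gene, the one with the highest mean was kept. To be tested, a gene had to reach the 40th percentile (non-control probe sets, per array) on 2 arrays or more, and 19011 of 19505 did. A group-means model over all 10 arrays was fitted with limma 3.58.1 in R 4.3.3 (lmFit, eBayes, Benjamini-Hochberg adjustment, threshold 0.05), with 5 residual and 51 prior degrees of freedom. SQ-diEG is the mean of both dose means minus injected water. The background limit is the 95th percentile of 5222 negative controls. The code was tested on simulated data.

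Named genes are the 10 separated genes in each direction with the smallest p, the 5 with the widest gap, those over background, up to 2 separated members of each list described, 14 fixed genes and those nearest the limit of separation. Clone-type names were left out. The members and lists were chosen with earlier results of these data known. The alternatives were other normalizations, filters, probe set summaries, variance models, sample sets, a hybridization covariate, a replicate block and each array left out.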

Additional observations from a re-analysis of the deposited data

Results flagged for a closer look

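In 5 of the 109 named genes, 1 of the 4 SQ-diEG arrays lay far from the other 3, by the ratio of its gap to the whole range. About 1 in 20 groups is picked out this way by chance. Slco1b2 stood at 7.16 on an array of 25 mg/kg, with the other 3 from 9.08 to 9.47. Ago4 stood at 6.01 on an array of 5 mg/kg, with the others from 7.64 to 7.94. The cathepsin gene Ctss of the MHC class II list stood at 9.78 on an array of 5 mg/kg, with the others from 6.79 to 7.09. Vmn2r34, a vomeronasal receptor, and Mlxipl, a transcription factor of sugar and lipid metabolism, stood at 7.66 and 7.79 on an array of 25 mg/kg, with the others from 6.07 to 6.33 and from 6.05 to 6.33.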

How the results depend on the processing

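The count of genes passing limma's test was 0 for SQ-diEG against water, for each dose and between doses under each of the 16 alternatives that applied. With dose ignored there is no comparison of single doses. The smallest adjusted p ran from 0.205 to 0.983 for both doses together, from 0.256 to 0.979 at 5 mg/kg, from 0.0823 to 0.963 at 25 mg/kg and from 0.617 to 0.959 between doses. The number of separated genes was 2540 after quantile normalization, 2534 after median centring, 2599 without a filter, 2218 with a 60th percentile filter and 2529 with the mean of probe sets. With 1 array left out it ran from 3739 to 7636, since fewer arrays are easier to separate. It was 7502 and 7636 without injected water array 1 or 2, 3831 and 3739 without array 1 or 2 of 5 mg/kg, and 3791 and 3795 without array 1 or 2 of 25 mg/kg. Where 1 array was left in a group, it was assumed to vary like the other groups.

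Of the 109 named genes, Cdkn1a turned from -0.04 to 0.63 with the hybridization controls as a covariate, the only change of direction in 1081 values outside the left-out arrays, and the cause was not tested. With 1 array left out, 6 genes turned at least once. Cdkn1a ran from -0.36 to 0.28, Sqle from -0.50 to 0.37, Cbx3 from -1.96 to 0.92, Dct from -0.78 to 0.0055, Tyrp1 from -1.12 to 0.056 and Tyr from -1.48 to 0.26. The sign of the median changed in 12 of 39 lists under another setting, 11 of them with the hybridization covariate, and in 20 with an array left out. The lists of endothelium, p53 and apoptosis, heart and muscle and the small ribosomal subunit were among the 11. With the replicate block the counts stayed at 0, with 945 genes under an unadjusted 0.05. The deviations of arrays with the same number had r of -0.02, 0.00 and 0.00 between the groups. Most genes lay under the background limit, so these values cannot tell if the numbers pair the arrays. In water and at each dose, the hybridization controls averaged higher on array 2 than on array 1, and a link to the numbers was not tested. Levels under the background limit restrict what these arrays can show.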
